A study of Mus musculus with 16 samples.

Results

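Expression was compared in 16 mouse liver RNA libraries for a single quantity, the interaction of Tsc1 loss and ethanol. It is the ethanol effect in hepatic Tsc1 knockout liver minus the ethanol effect in wild-type liver, on the log2 scale, and asks whether alcohol changes a gene differently once Tsc1 is lost. All 16 of the 16 libraries in the series entered it, 4 in each of 4 groups, and 14346 of 48051 table rows with a gene symbol had enough counts to be tested. The groups were wild-type mice on a control diet, wild-type mice under the Gao-binge regimen (an alcohol diet followed by an alcohol gavage), hepatic Tsc1 knockout mice on the control diet, and hepatic Tsc1 knockout mice under Gao-binge, all on the C57BL/6J strain with a time label of 10 days. The labels call the deletion hepatic and give neither the promoter that drives it nor the exon removed, and give no age. Nothing in them states that each library is a different mouse, so p-values here describe variation among libraries, part of which could be technical. Below, libraries are written WT-ctr, WT-EtOH, KO-ctr and KO-EtOH with their replicate number.

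Tsc1 forms, with Tsc2, the complex that holds the kinase mTORC1 in check, and mTORC1 drives protein and lipid synthesis and restrains autophagy. In liver, binge alcohol is a stress that raises stress hormones, oxidative damage and lipid load, and cells answer through transcription factors such as the glucocorticoid receptor, ATF4, p53, NF-kappaB and the C/EBP family. Several of their targets, Ddit4 among them, feed back on mTORC1 through the TSC complex, which lacks Tsc1 where the deletion acts. The part of such feedback in the results was not tested.

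Tsc1 itself, the targeted gene, was counted at 24.3, 27.6, 24.9 and 29.7 CPM (counts scaled to the effective library size) in the wild-type controls and at 19.2, 19.8, 18.7 and 15.8 CPM in wild type after ethanol. It stood at 23.4, 16.8, 16.2 and 17.7 CPM in the knockout controls and at 11.8, 14.9, 14.03 and 16.4 CPM in the knockout after ethanol. The wild-type controls lay above the other 12 libraries, and the other groups overlapped. The interaction for Tsc1 was 0.16 ± 0.19 log2 (SE, adjusted p = 0.680), so the ethanol effect on its own transcript was not shown to differ by genotype, and the interval of 1 SE spans 0. A gene-level count also holds reads of exons that the deletion leaves and of non-hepatocyte cells, so it is a partial check of the labels. Total counts ran from 14750420 to 21757100 per library. Albumin took 7.7 to 8.97% of counts in wild-type and 3.34 to 6.71% in knockout libraries, and mitochondrial transcripts took 3.5 to 5.82% and 4.81 to 9.62%. The knockout ethanol group was the least even, with TMM scaling factors of 0.926 to 1.2.

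The ethanol response was smaller in the knockout for most genes that differed. With edgeR's quasi-likelihood test, 259 genes were called for the interaction at an adjusted p under 0.05, or 1.81% of the genes tested. Of these, 184 (1.28% of the genes tested) were lower, meaning that the ethanol effect was more negative in the knockout, and 75 (0.523%) were higher. In the same fit ethanol changed 4811 genes in wild type (33.5%) and 2024 in the knockout (14.1%). The interaction carries the error of 4 group means, and its median SE was 0.256 log2 against 0.18 for an ethanol effect within 1 genotype, so an interaction has to be larger than a simple effect to be called. Without adjustment, 2731 genes had a p under 0.05.

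The called genes were described by the ethanol effects that make up the interaction, which share its libraries and are no separate evidence. Among the 184 lower genes the median ethanol effect was 1.23 log2 in wild type and 0.0060 in the knockout, and it was positive in wild type for all 184. Among the 75 higher genes the medians were -1.20 and 0.015, with 74 negative in wild type. Of the 259 called genes, 191 (73.7%) were changed by ethanol only in wild type, 35 in both genotypes in the same direction, 20 only in the knockout, and 13 in opposite directions. On the control diet the median knockout minus wild-type differences were 0.085 log2 for the lower and 0.13 for the higher genes, against -1.12 and 1.21 after ethanol. These medians are over genes that go both ways, and single genes, of which Ddit4, Cd83 and Clic5 are examples chosen after their values were seen, differed by genotype before ethanol (2.26, 1.57 and 1.65 log2, adjusted p = 0.000247, 0.00312 and 2.71e-05). The wild-type controls lay below all 12 others in 27 of the 184 lower genes (14.7%, against 2.51% of all genes).

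The group that stood apart was usually wild type after ethanol. Its 4 libraries lay above all 12 others in 137 of the 184 lower genes (74.5%), which was the case in 5.57% of all genes tested. They lay below all 12 others in 58 of the 75 higher genes (77.3%), against 4.59% of all genes. Of the 2525 genes that ethanol raised in wild type, 172 (6.81%) were called for the interaction, and of the 2286 it lowered, 67 (2.93%). The difference of differences in plain CPM had the same sign as on the log2 scale in 183 of 184 lower and 75 of 75 higher genes.

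**Figure D1:**
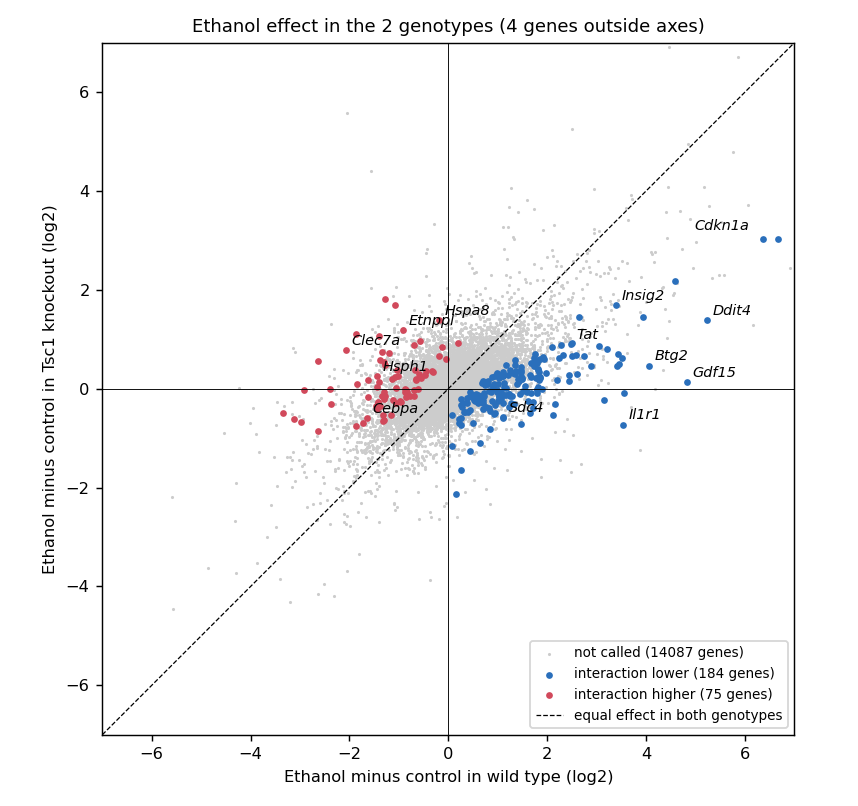
Ethanol minus control in wild type (x axis) against the same difference in Tsc1 knockout (y axis), both log2, with 1 point per tested gene and 4 genes outside the axes. The 184 lower genes (blue) lie to the right of 0 and below the diagonal of equal effects, 93 of them with a positive knockout effect, and most of the 75 higher genes (red) lie to the left of 0.

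How many genes were called depended on single libraries and on the tool. Leaving out WT-ctr 1, 3 or 4 left 53, 79 or 56 called genes, and leaving out KO-ctr 1, 2, 3 or 4 left 88, 126, 119 or 85. Leaving out KO-EtOH 4 left 156, WT-EtOH 1 or 4 left 150 or 139, and leaving out WT-EtOH 3 gave 495. DESeq2 called 731. The lower genes made up 71.0% of the calls as reported, 60.1% with DESeq2 and 51.3% with upper-quartile scaling. Their share of the calls was thus smaller with these 2 settings. Over all 28 settings, 39 genes were called in every one, 33 lower and 6 higher.

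**Figure D2:**
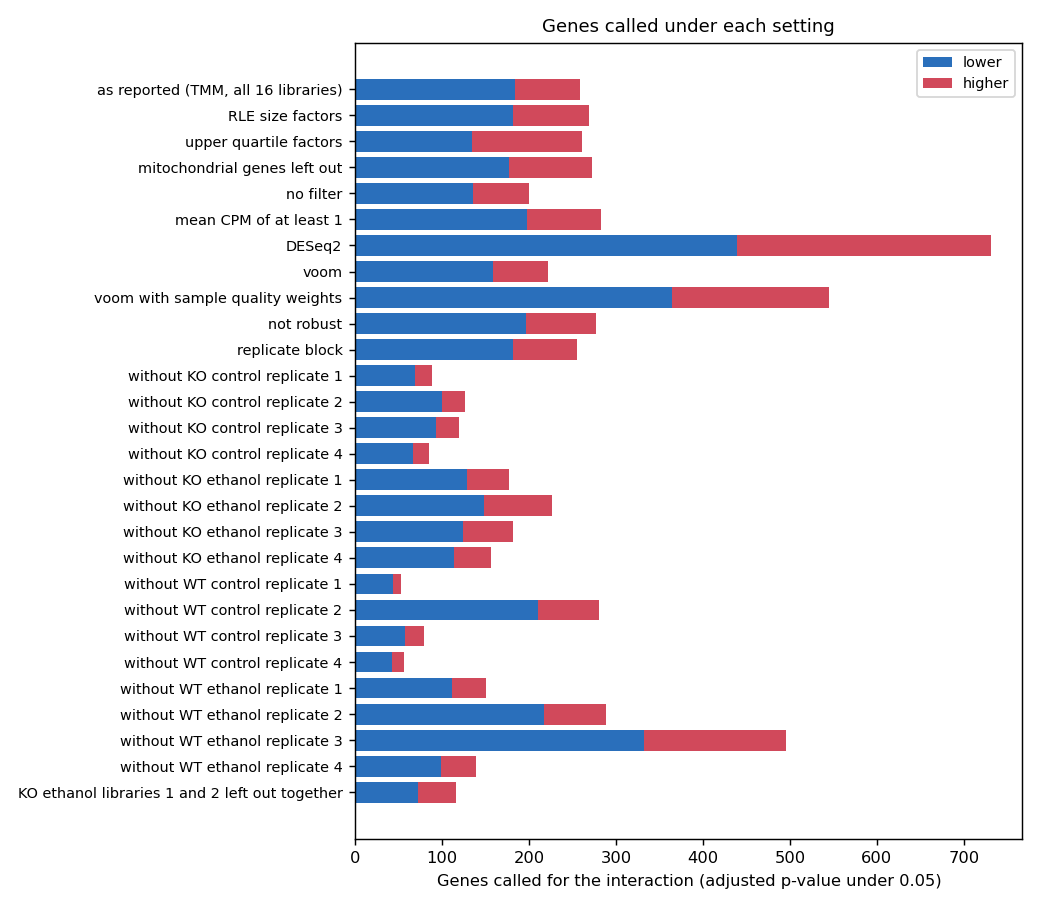
Number of genes called for the interaction (x axis, from 0) under each of 28 settings (rows), split into lower (blue) and higher (red). The count runs from 53 without wild-type control replicate 1 to 731 with DESeq2, and lower genes outnumber higher genes in each row.

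Ddit4, a stress-induced inhibitor of mTORC1 that acts through the TSC complex, had the smallest p of the 14346 genes. It stood at 3.68, 3.94, 4.37 and 5.05 CPM in the wild-type controls and at 146, 224, 121 and 148 CPM in the WT-EtOH libraries. In the knockout it stood at 19.3, 20.1, 28.1 and 14.1 CPM on the control diet and at 38.8, 62.4, 32.7 and 80.0 CPM after ethanol. The wild-type controls lay below and the wild-type ethanol libraries above all others, and the 2 knockout groups did not overlap each other. Ethanol raised Ddit4 by 5.23 ± 0.33 log2 in wild type (SE, adjusted p = 2.20e-07) and by 1.39 ± 0.27 in the knockout (adjusted p = 0.00468), an interaction of -3.84 ± 0.41 log2 (adjusted p = 0.000918). On the control diet it was already 2.26 ± 0.30 log2 higher in the knockout (adjusted p = 0.000247). The call held in all 27 alternatives, with an adjusted p of at most 0.00593. Of 23 tested mTORC1 pathway components, Ddit4 was the only gene called, beside 1.81% of all genes, and the list's median interaction was 0.07 log2. Deptor, another mTORC1 inhibitor and an uncalled member, had an interaction of 0.41 ± 0.19 log2 (adjusted p = 0.247).

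Promoter sequence is shown for 4 of the genes below, 3 lower and 1 higher, to place the motifs searched. Each run is the stretch before the RefSeq start on the gene's own strand (GRCm38.p6), shortened where the GENCODE M21 gene begins earlier, and capitals mark the motif named with it. Ddit4 (chr10:59951835-59952020, minus strand) and Gdf15 (chr8:70632457-70632706, minus strand) are shown with GGGNNNTCC, an NF-kappaB type element. Ciart (chr3:95882252-95882478, minus strand) is shown with CACGTG, the E-box. Lyz2 (chr10:117282322-117282522, minus strand) is shown with ACANNNTGT, a glucocorticoid receptor type element.
Ddit4: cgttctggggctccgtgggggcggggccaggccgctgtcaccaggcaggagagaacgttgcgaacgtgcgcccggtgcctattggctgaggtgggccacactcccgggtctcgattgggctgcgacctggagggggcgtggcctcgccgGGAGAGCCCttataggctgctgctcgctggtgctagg
Gdf15: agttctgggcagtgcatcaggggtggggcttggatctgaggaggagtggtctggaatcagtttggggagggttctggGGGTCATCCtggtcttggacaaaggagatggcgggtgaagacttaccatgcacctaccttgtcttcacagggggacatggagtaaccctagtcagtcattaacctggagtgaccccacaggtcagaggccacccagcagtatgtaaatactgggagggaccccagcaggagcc
Ciart: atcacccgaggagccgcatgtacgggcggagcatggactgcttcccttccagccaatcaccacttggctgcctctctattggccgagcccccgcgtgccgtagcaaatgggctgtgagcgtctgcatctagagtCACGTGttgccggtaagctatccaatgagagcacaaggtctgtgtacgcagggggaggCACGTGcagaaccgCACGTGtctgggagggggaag
Lyz2: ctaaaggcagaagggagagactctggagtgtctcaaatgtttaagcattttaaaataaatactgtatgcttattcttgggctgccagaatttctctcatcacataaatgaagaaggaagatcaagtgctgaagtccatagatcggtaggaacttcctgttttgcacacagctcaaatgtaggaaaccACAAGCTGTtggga
In the 250 bases before the start, on both strands, GGGNNNTCC was found in 19.3% of 10408 promoters of tested genes, in 22.8% of the 145 promoters found for lower genes and in 22.8% of the 57 found for higher genes. CACGTG was found in 8.39%, 9.66% and 3.51%, and ACANNNTGT in 3.82%, 2.07% and 3.51%. Ciart held CACGTG 3 times. GAAANNGAA, an interferon response type element, was found in 6.38%, 6.21% and 7.02%, TTCNNNGAA, a STAT type element, in 6.03%, 4.14% and 3.51%, and TGATGNAAT, the C/EBP-ATF element, in 0.461% of all and in 0 of the called genes' promoters. These are matches of letters and not measured binding.

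The largest fall was in Gdf15, a secreted stress cytokine. Its wild-type controls stood at 4.12, 5.44, 2.15 and 3.83 CPM and its wild-type ethanol libraries at 172, 88.3, 119 and 63.2 CPM, while the knockout libraries ran from 12.96 to 98.3 CPM on the control diet and from 20.2 to 90.6 CPM after ethanol. The wild-type controls lay below all other libraries, and the 2 knockout groups overlapped throughout. The interaction was -4.70 ± 0.88 log2 (adjusted p = 0.0235), with ethanol effects of 4.82 ± 0.69 log2 in wild type and 0.13 ± 0.57 in the knockout. The call was lost without WT-ctr 1, 3 or 4 (-4.71 to -4.48 log2, adjusted p 0.0508 to 0.0613).

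Il1r1, the receptor for interleukin-1, had the next largest fall. It stood at 36.0, 84.6, 45.6 and 27.2 CPM in the wild-type controls and at 261, 712, 199 and 1070 CPM after ethanol. The knockout ran from 39.9 to 82.2 CPM on the control diet and from 27.9 to 36.4 CPM after ethanol. All 4 wild-type ethanol libraries lay above the other 12, and the knockout ethanol libraries lay at the level of the controls or lower. The interaction was -4.26 ± 0.70 log2 (adjusted p = 0.0120), and the call held without any single library (-4.67 to -3.72 log2). The interaction of Il1r1 was -4.23 log2 without KO-EtOH 1 and 2 together, where the call was lost (adjusted p = 0.0578).

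Growth-arrest genes formed part of the largest falls. Cdkn1a, which encodes the cell-cycle inhibitor p21, stood at 1.06 to 3.36 CPM in wild-type controls, 117 to 225 CPM in wild type after ethanol, 2.66 to 8.28 CPM in knockout controls and 13.5 to 52.5 CPM in the knockout after ethanol. Ethanol raised it in both genotypes, by 6.37 log2 in wild type (adjusted p = 2.78e-06) and by 3.03 in the knockout (adjusted p = 0.00114), and the interaction was -3.34 ± 0.66 log2 (adjusted p = 0.0267). Btg2, an antiproliferative early-response gene, rose from 7.74 to 15.2 CPM in wild-type controls to 62.1 to 310 CPM with ethanol, and its knockout libraries ran from 19.9 to 55.1 CPM. Its interaction was -3.60 ± 0.66 log2 (adjusted p = 0.0226). Gadd45b, a growth-arrest and stress gene (-2.41 ± 0.53, adjusted p = 0.0320), and Trp53inp1, a p53-induced stress gene (-2.74 ± 0.65, adjusted p = 0.0489), made 4 of 24 tested p53 and growth-arrest genes called lower and 0 higher. Over all genes 1.28% were called lower and 0.523% higher. The list's median was -0.21 log2, beside 0.000685 over all genes tested, and it ran from -0.49 without KO-EtOH 2 to -0.02 without WT-EtOH 4. Without KO-ctr 3 or 4, KO-EtOH 1 or 4, WT-ctr 1 or 3 or WT-EtOH 1 it was -0.13 to -0.08. The call of Cdkn1a was lost without WT-ctr 1, 3 or 4, WT-EtOH 4 or KO-ctr 1 or 3 (-3.42 to -2.90 log2, adjusted p 0.0505 to 0.0634), and that of Btg2 without WT-ctr 1, 3 or 4 (-3.57 to -3.47). Gadd45b lost it without WT-ctr 1, 3 or 4, KO-ctr 1, 3 or 4 or KO-EtOH 1 or 3 (-2.52 to -2.12), and Trp53inp1 kept it only without WT-EtOH 2 or 3 or KO-EtOH 2 (-2.94 to -2.41 where lost).

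Targets of the glucocorticoid receptor, the receptor for the adrenal stress hormones, were among the genes that ethanol raised. Of 25 tested targets, 20 were raised by ethanol in wild type and 8 in the knockout, and 0 were lowered in either. Over all 14346 genes ethanol raised 2525 in wild type and 1004 in the knockout, so fewer rises in the knockout were also the pattern of all genes. For the interaction 4 of the 25 were called lower, beside 1.28% of all genes, and 0 higher, and 24 of 25 had a negative value, with a median of -1.51 log2. The list was chosen with results of these libraries known, so it is no independent evidence of a direction. The median level of the 25 genes relative to the wild-type control mean was 2.23, 2.67, 1.98 and 2.92 log2 in the wild-type ethanol libraries and 0.6, 0.64, 1.1 and 1.16 in the knockout ethanol libraries, and it did not exceed 0.66 in any control library. The 2 ethanol groups did not overlap.

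Tat, the tyrosine aminotransferase of hepatocytes and a textbook glucocorticoid target, stood at 803, 880, 746 and 1134 CPM in wild-type controls and at 4512, 5669, 3191 and 6638 CPM after ethanol. Knockout libraries stood at 1220, 955, 758 and 1027 CPM on the control diet and at 1316, 2464, 1662 and 1971 CPM after ethanol. Ethanol raised it in both genotypes without overlap, and wild type after ethanol lay above all other libraries. The interaction was -1.58 ± 0.33 log2 (adjusted p = 0.0261), and the call was lost without WT-ctr 1 or 3 or KO-ctr 1 or 4 (-1.57 to -1.47, adjusted p 0.0517 to 0.0633). Tdo2, an uncalled target that degrades tryptophan, had an interaction of -0.31 ± 0.30 log2 (adjusted p = 0.615). Cdkn1a, Ddit4 and Cebpd were the other called targets.

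The C/EBP transcription factors, which set hepatocyte identity and the response to inflammation, moved in different directions. Cebpb stood at 86.2, 122, 76.1 and 106 CPM in wild-type controls and at 237, 251, 163 and 288 CPM after ethanol, against 93.8, 101, 105 and 100 CPM and 98.8, 61.0, 79.1 and 90.7 CPM in the knockout. The wild-type ethanol libraries lay above all others, and the knockout ethanol libraries overlapped the controls. Its interaction was -1.55 ± 0.25 log2 (adjusted p = 0.00722). Cebpd stood at 3.32 to 8.26 CPM in wild-type controls, 31.8 to 42.4 CPM after ethanol, 5.68 to 7.57 CPM in knockout controls and 8.23 to 12.8 CPM after ethanol, with an interaction of -2.08 ± 0.31 log2 (adjusted p = 0.00445). Both calls held in all 27 alternatives, with an adjusted p of at most 0.0264 for Cebpb and 0.0166 for Cebpd.

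Cebpa, which maintains the metabolic genes of mature hepatocytes, went the other way. It stood at 507, 506, 558 and 566 CPM in wild-type controls and fell to 172, 126, 244 and 143 CPM with ethanol. The knockout fell from 468, 483, 588 and 527 CPM to 382, 316, 410 and 260 CPM. The groups did not overlap within either genotype, and wild type after ethanol lay below all other libraries. The ethanol effect was -1.64 log2 in wild type (adjusted p = 1.08e-05) and -0.60 in the knockout (adjusted p = 0.0371), an interaction of 1.05 ± 0.26 log2 (adjusted p = 0.0464). That call was lost in 13 of 16 fits that left out 1 library, all but those without WT-EtOH 3 or KO-EtOH 2 or 4 (0.93 to 1.11 log2, adjusted p 0.0539 to 0.0929). Cebpa and Cebpb were the 2 called among 19 tested hepatocyte transcription factors, beside 1.81% of all genes. Hnf4a, another of them, had an interaction of -0.39 ± 0.25 log2 (adjusted p = 0.422). Exons of Cebpa, Cebpb, Cebpd and Cdkn1a, and of Fcgr2b, Foxo1 and Plin4 below, overlap a gene on the other strand. The strand setting of the counting is not given in the sources used here, so reads of such pairs cannot be told apart. Of the 255 called genes placed uniquely, 80 have such an overlap on the other strand and 21 on the same strand.

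**Figure D3:**
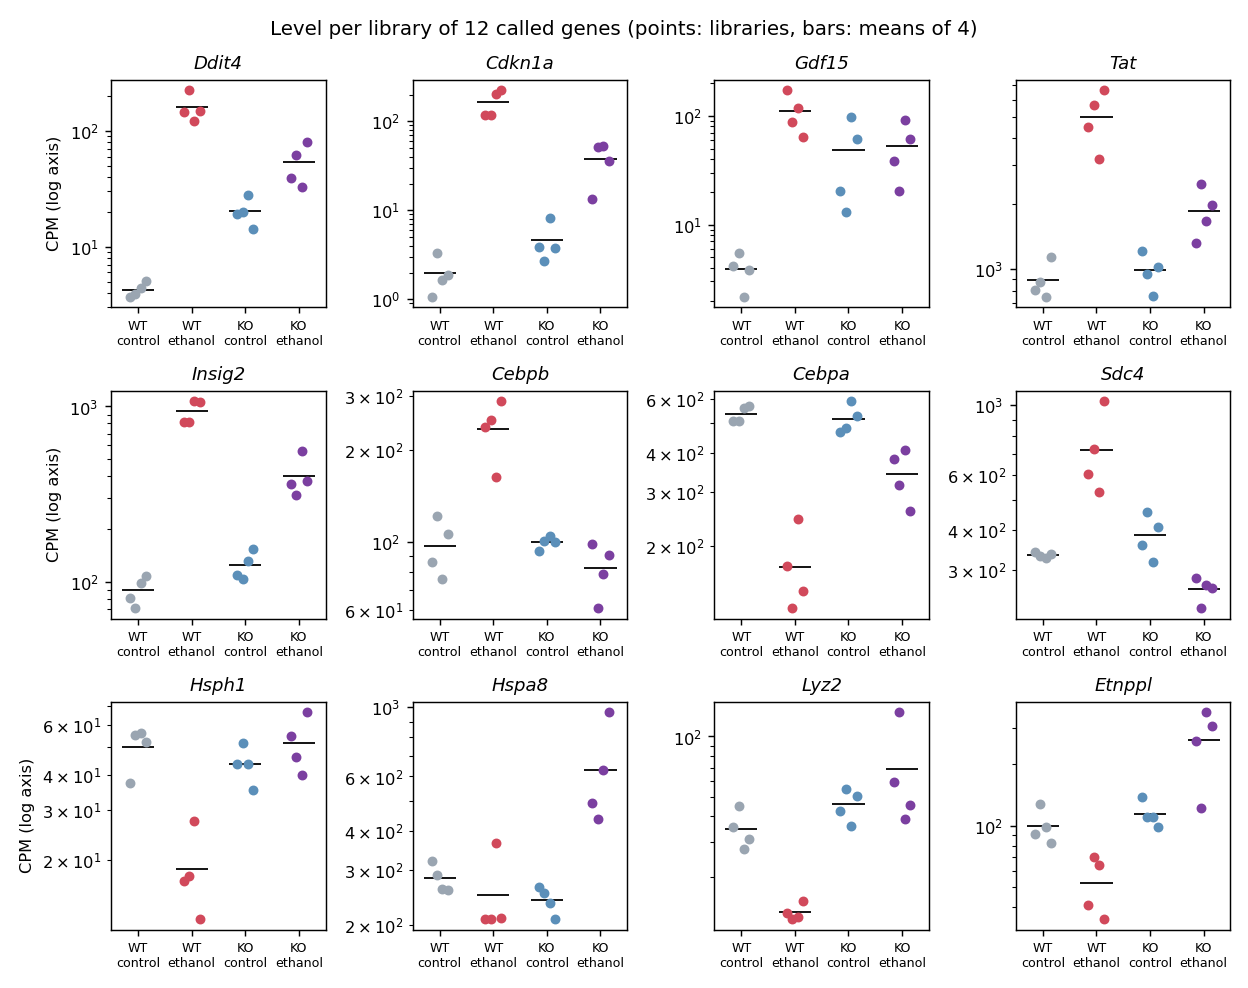
CPM (log axis) of 12 called genes in each library, with 4 points per group and a bar at the group mean. For Ddit4, Cdkn1a, Tat, Insig2, Cebpb and Sdc4 the wild-type ethanol points lie above all others, for Cebpa, Hsph1, Lyz2 and Etnppl below all others, and for Hspa8 the knockout ethanol points lie above all others.

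Immediate early genes, which are transcribed within minutes of a stimulus, had a median interaction of -1.63 log2 over 18 tested members, near that of the glucocorticoid targets. Of these, 15 were raised by ethanol in wild type and 5 in the knockout (2525 and 1004 of all 14346 genes), and 3 were called lower for the interaction (1.28% of all genes) and 0 higher (0.523%). Fosl2, a subunit of the AP-1 factor, stood at 8.48 to 10.9 CPM in wild-type controls, 26.4 to 41.7 CPM after ethanol, 11.04 to 13.8 CPM in knockout controls and 15.7 to 20.5 CPM after ethanol. Its interaction was -1.20 ± 0.20 log2 (adjusted p = 0.00939) and held in all 27 alternatives. Ier2 was called at -1.39 ± 0.30 (adjusted p = 0.0317), a call kept only without WT-ctr 2, WT-EtOH 2, 3 or 4 or KO-EtOH 4 (-1.51 to -1.25 where lost). Egr1, an uncalled member, stood at 123 to 420 CPM in wild type after ethanol and at 18.1, 24.7, 40.9 and 145 CPM in the knockout after ethanol, so these groups overlapped, and its interaction was -2.55 ± 1.13 log2 (adjusted p = 0.243). KO-ctr 3 had the highest level of the list among the controls, 1.39 log2 against 0.27, 0.32 and 0.74 in the other knockout controls, and without it the list's median was -1.21.

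Targets of ATF4, the factor of the integrated stress response, gave 5 lower and 0 higher calls among 36 tested, with a median of -0.55 log2 that was -0.30 without WT-EtOH 4. Over all genes 1.28% were called lower. Ethanol raised 27 of the 36 in wild type and 13 in the knockout, beside 2525 and 1004 of all 14346 genes. The called members were Ddit4, Gdf15, Cebpb, Slc7a5 and Chac1. Slc7a5, the large neutral amino acid transporter, rose in wild type (1.47 log2, adjusted p = 0.00409), from 2.34 to 3.87 CPM to 4.4 to 16.2 CPM. Its knockout libraries stood at 7.85 to 11.7 CPM on the control diet and 4.75 to 7.41 CPM after ethanol, a difference that missed the threshold (-0.71 log2, adjusted p = 0.164). Its interaction was -2.18 ± 0.48 (adjusted p = 0.0324). Chac1, which degrades glutathione, stood at 64.1, 21.9, 17.2 and 64.6 CPM in wild type after ethanol and at 6.3 to 13.2 CPM in the knockout after ethanol, with an interaction of -2.96 ± 0.71 (adjusted p = 0.0493). The Chac1 call was kept only without WT-ctr 2 or WT-EtOH 2 or 3 (-3.16 to -2.67 where lost), and the Slc7a5 call was lost without any KO-ctr library, WT-ctr 1, 3 or 4, WT-EtOH 1 or KO-EtOH 3 or 4 (-2.27 to -2.04). Aars, an uncalled aminoacyl-tRNA synthetase target, had -0.48 ± 0.25 (adjusted p = 0.312).

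Of 31 tested genes of endotoxin sensing and NF-kappaB feedback, Il1r1 and Tnfrsf1b were called lower (1.28% of all genes) and 0 higher (0.523%), with a median of -0.35 log2. Tnfrsf1b, a receptor for tumour necrosis factor, stood at 24.7 to 40.0 CPM in wild-type controls, 44.5 to 78.9 CPM after ethanol, 27.8 to 34.3 CPM in knockout controls and 26.8 to 32.4 CPM after ethanol, with an interaction of -1.14 ± 0.24 log2 (adjusted p = 0.0261). The call was lost without WT-ctr 1, 3 or 4 or KO-ctr 1 or 2 (-1.12 to -1.04). Acute-phase proteins had a median of -1.11 log2 over 27 tested genes with 0 called in either direction. Their median level was 2.29 log2 in WT-EtOH 4 and 0.04 to 0.91 in the other 3 libraries of that group, and without WT-EtOH 4 the median interaction was -0.29. Fga, a fibrinogen chain, stood at 5771, 9356, 4602 and 23412 CPM in wild type after ethanol, and its interaction was -1.40 ± 0.63 log2 (adjusted p = 0.244). Fgb, another chain, stood at 22388 CPM in that library, with -1.46 ± 0.61 (adjusted p = 0.211).

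Several called genes act in lipid and nutrient handling. Insig2, an endoplasmic reticulum protein that holds back the SREBP factors of lipid synthesis, stood at 80.6, 70.5, 98.9 and 108 CPM in wild-type controls and at 815, 820, 1072 and 1056 CPM after ethanol. The knockout stood at 109, 103, 132 and 154 CPM and at 360, 314, 556 and 376 CPM. Ethanol raised Insig2 without overlap in both genotypes, by 3.39 log2 (adjusted p = 1.16e-07) and 1.69 (adjusted p = 7.61e-05), and the interaction was -1.70 ± 0.27 (adjusted p = 0.00651). It was the only called gene among 22 tested de novo lipogenesis genes, beside 1.81% of all genes, and the list's median was 0.14. Scd1, an uncalled desaturase of that list, had 1.39 ± 0.65 (adjusted p = 0.262).

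Of 16 lipid droplet and lipolysis genes, 2 were called lower (1.28% of all genes) and 0 higher (0.523%), with a median of -0.27 log2. Hilpda, an inhibitor of lipolysis on droplets, stood at 1.54 to 2.61 CPM in wild-type controls, 5.44 to 14.2 CPM after ethanol, 1.60 to 2.28 CPM in knockout controls and 1.69 to 2.93 CPM after ethanol (-2.03 ± 0.40, adjusted p = 0.0235). Plin4, a droplet coat protein, rose from 7.24 to 14.4 CPM to 27.7 to 77.0 CPM in wild type, and its knockout libraries ran from 11.4 to 28.0 CPM (-2.30 ± 0.46, adjusted p = 0.0261). The Hilpda call was lost without WT-ctr 1 or 3 or KO-ctr 4 (-2.04 to -1.88), and the Plin4 call without WT-ctr 1 or 4 or KO-ctr 1, 3 or 4 (-2.31 to -2.15). The droplet coat protein Plin2, not called, had -0.69 ± 0.35 log2 (adjusted p = 0.292).

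Transporters and a metabolic transcription factor added further lower calls. Slc16a6, a monocarboxylate transporter, stood at 4.79 to 9.78 CPM in wild-type controls, 37.1 to 77.3 CPM after ethanol, 5.97 to 12.3 CPM in knockout controls and 9.82 to 13.2 CPM after ethanol. Its interaction of -2.42 ± 0.38 log2 (adjusted p = 0.00690) held in all 27 alternatives, and its exons overlap other genes on both strands. Slc16a1, a lactate and pyruvate transporter, was called at -0.78 ± 0.16 (adjusted p = 0.0245), lost without WT-ctr 1 or 4 or KO-ctr 1 (-0.75 to -0.73). Foxo1, the insulin-restrained factor of gluconeogenesis, stood at 109 to 117 CPM in wild type after ethanol and at 34.8 to 71.4 CPM in the other 3 groups, with -1.12 ± 0.27 (adjusted p = 0.0416), a call kept only without WT-EtOH 3 or KO-ctr 3 or KO-EtOH 3 (-1.26 to -1 where lost). Slc39a14, a zinc and iron importer, was called at -2.0997 ± 0.50 (adjusted p = 0.0454) and kept its call only without WT-EtOH 3 (-2.28 to -1.63 where lost).

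Ciart, a repressor of the circadian clock, was raised by ethanol in wild type (1.65 log2, adjusted p = 5.45e-05) and not shown to change in the knockout (-0.49, adjusted p = 0.162). It stood at 18.2, 19.7, 8.24 and 9.99 CPM in wild-type controls and at 50.1, 39.8, 40.9 and 45.2 CPM after ethanol, against 11.1, 12.2, 10.1 and 8.18 CPM and 6.02, 8.12, 7.25 and 8.06 CPM in the knockout. Wild type after ethanol lay above all other libraries and knockout after ethanol below them. The interaction was -2.14 ± 0.32 log2 (adjusted p = 0.00445) and held in all 27 alternatives. Nfil3, a clock-linked repressor, was also lower (-1.57 ± 0.33, adjusted p = 0.0279), a call lost without WT-ctr 1 or 4, WT-EtOH 1 or KO-ctr 1, 2 or 3 (-1.63 to -1.46). These were 2 of 21 tested clock genes, beside 1.28% of all genes called lower, with a list median of -0.03. The hours at which tissue was taken are not given in the labels.

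The next 3 genes by p after Ddit4 were singled out after their values were seen. Pla2g12a, a secreted phospholipase A2, stood at 62.0 to 80.4 CPM in wild type after ethanol and at 18.3 to 37.9 CPM in all other libraries (-1.57 ± 0.18 log2, adjusted p = 0.000918). Arhgef3, a guanine nucleotide exchange factor, stood at 43.3 to 51.3 CPM against 19.4 to 30.8 CPM (-1.10 ± 0.13, adjusted p = 0.000918). Msrb3, which repairs oxidised methionine, stood at 20.1 to 27.2 CPM against 8.54 to 17.0 CPM (-1.33 ± 0.17, adjusted p = 0.00183). In each of these the wild-type ethanol libraries lay above the other 12, the knockout was not shown to change with ethanol (0.24, 0.03 and -0.10 log2), and the call held in all 27 alternatives. Retreg1, a receptor for autophagy of the endoplasmic reticulum and also chosen after its values were seen, stood at 42.1 to 83.9 CPM in wild-type controls, 320 to 650 CPM after ethanol, 61.5 to 94.1 CPM in knockout controls and 122 to 204 CPM after ethanol (-2.18 ± 0.36, adjusted p = 0.00844).

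In 13 genes ethanol acted in opposite directions in the 2 genotypes. Sdc4, a cell-surface heparan sulphate proteoglycan chosen after its values were seen, rose in wild type from 340, 331, 326 and 337 CPM to 603, 728, 530 and 1030 CPM. In the knockout it fell from 359, 456, 318 and 411 CPM to 281, 226, 269 and 263 CPM. The ethanol groups lay above and below all other libraries, with effects of 1.12 (adjusted p = 0.000157) and -0.57 log2 (adjusted p = 0.0337) and an interaction of -1.69 ± 0.24 (adjusted p = 0.00398). Etnppl, which breaks down phosphoethanolamine, fell in wild type from 90.6, 127, 98.6 and 82.1 CPM to 41.2, 70.5, 64.4 and 35.0 CPM. In the knockout it rose from 138, 110, 111 and 98.0 CPM to 258, 122, 356 and 304 CPM, with overlap at KO-EtOH 2. Its interaction was 2.104 ± 0.40 log2 (adjusted p = 0.0226) and held without any single library (1.93 to 2.34). The interaction of Etnppl was 2.11 log2 with no filter on low counts, where the call was lost (adjusted p = 0.0528). Atg16l1, part of the machinery that builds autophagosomes, rose by 0.25 log2 in wild type (adjusted p = 0.0418) and fell by 0.33 in the knockout (adjusted p = 0.0267). It was the only gene called among 21 of autophagy, beside 1.81% of all genes. Its interaction was -0.58 ± 0.13 (adjusted p = 0.0339), lost without WT-ctr 1, 3 or 4, any KO-ctr library or KO-EtOH 3 or 4 (-0.61 to -0.54).

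In 20 genes ethanol was called in the knockout alone. Hspa8, the constitutive cytosolic Hsp70 chaperone, stood at 322, 291, 261 and 260 CPM in wild-type controls and at 209, 209, 368 and 212 CPM after ethanol. In the knockout it stood at 266, 253, 236 and 209 CPM and rose to 495, 439, 627 and 963 CPM. The knockout ethanol libraries lay above all 12 others, and the interaction was 1.57 ± 0.32 log2 (adjusted p = 0.0247), lost without WT-ctr 1 or 4 or KO-ctr 4 (1.51 to 1.63). Hspa8 has processed copies and hosts small nucleolar RNAs, so its counts are uncertain in how reads were assigned. Hsph1, a partner chaperone of the Hsp70 family, reached the same sign by a fall in wild type, from 37.3, 55.3, 56.5 and 52.5 CPM to 16.9, 17.5, 27.4 and 12.3 CPM, while the knockout stood at 35.4 to 52.1 CPM and 40.0 to 66.6 CPM. Its interaction was 1.70 ± 0.30 (adjusted p = 0.0152) and held in all 27 alternatives. These were the 2 called among 21 heat shock genes, beside 1.81% of all genes, and the list's median was 0.45 log2. The uncalled Hsp90ab1, a cytosolic Hsp90 chaperone, had 0.41 ± 0.20 (adjusted p = 0.279). Rcl1, a ribosomal RNA processing factor singled out after its values were seen, fell in the knockout alone, from 113 to 149 CPM to 69.8 to 90.4 CPM (-0.74 log2, adjusted p = 0.00169), with an interaction of -0.98 ± 0.18 (adjusted p = 0.0152). Rrs1, a ribosome assembly factor, was the only called gene of 31 in ribosome biogenesis, beside 1.81% of all genes. Its interaction was -0.89 ± 0.20 (adjusted p = 0.0339). The call was kept only without WT-ctr 2, WT-EtOH 2 or 3 or KO-ctr 2 or KO-EtOH 2 (-0.93 to -0.79 where lost).

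Among the higher genes were several surface and secreted proteins of myeloid cells, which ethanol lowered in wild type. Clec7a, the receptor Dectin-1 of myeloid cells, stood at 3.95, 5.44, 3.38 and 4.07 CPM in wild-type controls and at 1.40, 0.938, 0.892 and 0.732 CPM after ethanol, against 5.04, 5.44, 3.62 and 6.54 CPM and 7.47, 18.6, 4.87 and 4.56 CPM in the knockout. The wild-type ethanol libraries lay below all others, and KO-EtOH 2 was the highest. The interaction was 2.86 ± 0.56 log2 (adjusted p = 0.0235), lost without WT-ctr 1 (2.89, adjusted p = 0.0505). Clec12a, an inhibitory myeloid receptor, fell in wild type from 3.12 to 5.01 CPM to 0.625 to 0.827 CPM and ran from 2.44 to 6.59 CPM in the knockout (2.06 ± 0.40, adjusted p = 0.0226), a call lost without KO-EtOH 1 and 2 together (1.42, adjusted p = 0.0523). Cd83, a surface protein of activated antigen-presenting cells, fell in wild type from 0.676 to 1.504 CPM to 0.225 to 0.535 CPM and rose in the knockout from 2.75 to 4.20 CPM to 4.37 to 10.9 CPM (2.46 ± 0.47, adjusted p = 0.0200), lost without WT-ctr 1 (2.31). Lyz2, the lysozyme of macrophages, stood at 12.3 to 15.3 CPM in wild type after ethanol and at 27.6 to 132 CPM in the other 3 groups (1.97 ± 0.43, adjusted p = 0.0350), and shares near-identical sequence with a paralogue. Its call was lost without any 1 of the 8 control libraries or WT-EtOH 1 or 4 (1.82 to 2.07, adjusted p 0.0508 to 0.0732).

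Lyz2 was the only gene called of 24 tested monocyte markers, beside 1.81% of all genes. Positive interactions were found in 22 of the 24 markers, and the list's median was 1.40 log2. Ethanol lowered 9 and raised 2 of them in wild type and raised 2 in the knockout. Over all 14346 genes it lowered 2286 and raised 2525 in wild type and raised 1004 in the knockout. The summed level of all 25 markers ran from 139.9 to 241.1 CPM in wild-type controls, 112.7 to 161.2 CPM in wild type after ethanol, 414.9 to 674.8 CPM in knockout controls and 342.9 to 1333 CPM in the knockout after ethanol, and none was at 0 in all libraries. KO-EtOH 2 had the highest level of the list, 1.89 log2 over the wild-type control mean against 0.81, 0.25 and 0.19 in the other 3, and without it the median interaction was 0.95. The median was 0.63, with 17 of 24 positive, without KO-EtOH 1 and 2, and 0.67 with voom quality weights. KO-EtOH 2 also had the highest sums of its group for stellate cell markers (1091 summed CPM against 529.9 to 543.1), cholangiocyte markers (4063 against 2755 to 2926) and neutrophil markers (1017 against 56.2 to 125.8). Only 6 of 20 neutrophil markers were tested, and their median level was 0.7 log2 in KO-EtOH 1 and 0.69 in KO-EtOH 2. WT-EtOH 4 reached higher sums for neutrophil markers (2264 against 116.1 to 359.8 in its group) and cholangiocyte markers (5117 against 2697 to 3532). The median level of cholangiocyte markers was lowest in WT-EtOH 4, at -0.44 log2 against -0.36 to -0.16 in its group. For this list the sum and the median level thus went opposite ways. The part of the makeup of KO-EtOH 2 or WT-EtOH 4 in the results was not tested. Of 19 Kupffer cell markers Vsig4, a complement receptor of resident macrophages, was the only call (1.27 ± 0.29, adjusted p = 0.0387). Over all genes 1.81% were called, and the Kupffer list's median was 0.60. The Vsig4 call was lost without WT-ctr 1, 2, 3 or 4, WT-EtOH 1 or 4, KO-ctr 1, 3 or 4 or KO-EtOH 1 (1.14 to 1.35). Kupffer markers summed to 882.1 to 1195 CPM, 466.5 to 568.2 CPM, 905.4 to 1138 CPM and 616.1 to 864.9 CPM in the same order of groups. In bulk liver, fewer cells of a type and less RNA per cell cannot be told apart, and the part of these markers in the other results was not tested. Lymphocyte and MHC class II genes gave 0 calls of 18 with a median of 0.70, which was 0.051 without KO-EtOH 1 and 2 and 0.41 with voom quality weights, at sums of 97.6 to 146.8, 50.82 to 92.89, 129.3 to 210.8 and 90.39 to 281.4 CPM.

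Pld4, an endolysosomal exonuclease of myeloid cells, was called at 1.48 ± 0.30 log2 (adjusted p = 0.0254). Fcgr2b, an inhibitory antibody receptor and 1 of 24 sinusoidal endothelial markers, was called at 0.82 ± 0.19 (adjusted p = 0.0416), and Cd44, an adhesion receptor in the list of fetal liver and tumour markers, at 1.56 ± 0.39 (adjusted p = 0.0496). Pld4 lost its call without WT-ctr 1 or 4 or KO-ctr 1 or 4 (1.46 to 1.49). Fcgr2b kept it only without WT-ctr 2, WT-EtOH 3 or KO-EtOH 2 or 3 (0.75 to 0.89 where lost), and Cd44 only without WT-EtOH 3 or KO-EtOH 3 (1.22 to 1.71). Cxcl12, a chemokine made by stromal and endothelial cells, stood at 389 to 544 CPM in wild-type controls, 116 to 162 CPM after ethanol, 360 to 442 CPM in knockout controls and 221 to 299 CPM after ethanol. It fell in both genotypes, and its interaction of 1.03 ± 0.20 (adjusted p = 0.0200) held in all 27 alternatives. Cxcl1, an uncalled neutrophil chemokine, had -3.30 ± 1.27 log2 (adjusted p = 0.181), with KO-ctr 3 at 118 CPM against 10.1 to 31.5 CPM in the others of its group.

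Interferon-stimulated genes had positive interactions in 44 of 45 tested members, with a median of 1.28 log2, and 1 call, beside 1.81% of all genes. The called gene was Oas3, an antiviral RNA sensor, at 0.119 to 0.563 CPM in wild type after ethanol and 5.90, 3.18, 1.55 and 1.12 CPM in the knockout after ethanol (2.99 ± 0.71, adjusted p = 0.0416). The median level of the list was 1.86 log2 in KO-EtOH 1 and -0.12, -0.11 and -0.05 in libraries 2 to 4 of that group, while it was -0.93 to -0.3 in wild type after ethanol. Without KO-EtOH 1 the list's median interaction was 0.51, with 41 of 45 positive, and Oas3 was no longer called. The Oas3 call was kept only without WT-EtOH 2 or 3 or KO-EtOH 3 or 4 (2.41 to 3.18 log2 where lost). Ifitm3, an uncalled antiviral membrane protein, had 0.54 ± 0.22 (adjusted p = 0.199).

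Cell cycle genes had positive values in 31 of 33 tested members, with a median of 0.998 log2 (0.66 without KO-EtOH 1 and 2) and 0 calls in either direction. Their median level was -0.63 to -0.49 log2 in wild type after ethanol and 0.18 to 0.69 in the knockout after ethanol, without overlap. Ethanol lowered 11 and raised 1 of them in wild type, and raised 8 and lowered 3 in the knockout. Over all 14346 genes it lowered 2286 and raised 2525 in wild type, and raised 1004 and lowered 1020 in the knockout. Smc2, a condensin subunit that was called outside this list, stood at 2.34 to 4.24 CPM in wild-type controls, 0.892 to 1.63 CPM after ethanol, 3.25 to 4.09 CPM in knockout controls and 3.74 to 6.64 CPM after ethanol (1.75 ± 0.33, adjusted p = 0.0200), a call lost without KO-EtOH 1 and 2 together (1.58, adjusted p = 0.0529). Ccnd1, an uncalled cyclin that starts the cell cycle, had 1.18 ± 0.39 (adjusted p = 0.118).

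**Figure D4:**
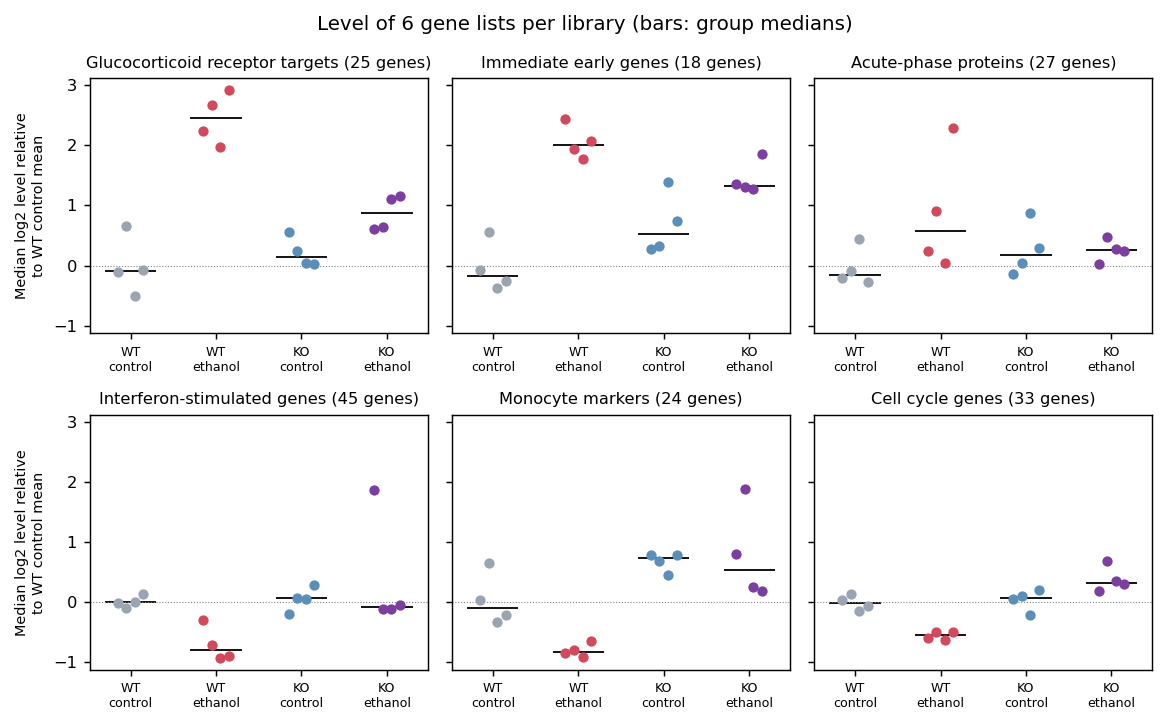
Median log2 level of 6 gene lists in each library relative to the mean of the wild-type controls (y axis), by group, with a bar at the group median. Glucocorticoid targets reach 1.98 to 2.92 in wild type after ethanol and 0.6 to 1.16 in the knockout, and single libraries stand apart at 2.29 for acute-phase proteins, 1.86 for interferon-stimulated genes and 1.89 for monocyte markers.

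The remaining large changes had less known or less certain roles. Msl3l2 had an interaction of -3.63 ± 0.56 log2 (adjusted p = 0.00547), with 3.63 to 13.9 CPM in wild type after ethanol and 0.430 to 1.20 CPM elsewhere, and Clic5, a chloride channel family protein linked to the actin skeleton, a value of 1.47 ± 0.27 (adjusted p = 0.0195). Both held in all 27 alternatives. Clic5 differed by genotype on both diets, at 7.72 to 12.3 CPM in the knockout and 0.938 to 4.30 CPM in wild type, and fell with ethanol in wild type. Dusp4, a phosphatase of MAP kinases, was called at -2.49 ± 0.51 (adjusted p = 0.0254), lost without WT-ctr 1, 3 or 4 or KO-ctr 2 or 4 (-2.49 to -2.26). Nos1ap (-2.65, adjusted p = 0.0339), Ccdc120 (-2.39, adjusted p = 0.0374), Dclk3 (1.78, adjusted p = 0.0303), Gpr137b-ps (1.92, adjusted p = 0.0416), Ddit4l, a relative of Ddit4 (2.08, adjusted p = 0.0404), and Actg1, a cytoplasmic actin (-3.37, adjusted p = 0.0393), each lost the call without WT-ctr 1, 3 or 4, among 8 to 13 of the 16 libraries in turn. Where lost, their values were -2.81 to -2.17, -2.53 to -2.11, 1.67 to 1.77, 1.67 to 2.04, 1.80 to 2.22 and -3.51 to -3.13, in the order named. Actg1 has many processed copies and was counted at 0.835 to 12.6 CPM, so its value is uncertain. Exons of Nos1ap overlap those of Gm7694 on the same strand, so how the shared reads were assigned is uncertain.

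Over all 51 lists, 34 of 1149 tested members were called, 9 higher and 25 lower, beside 1.81%, 0.523% and 1.28% of all genes. At 1.81% of all genes, few calls or none in a short list is not a result about that list. Of 40 tested lysosome and TFEB network genes 0 were called, with a median of 0.07 log2, and Ctsl, a lysosomal protease, had -0.42 ± 0.29 (adjusted p = 0.458) with an ethanol rise in both genotypes (1.57 and 1.14 log2, adjusted p = 5.35e-05 and 0.00253). Cytosolic ribosomal protein genes gave 0 calls of 74 with a median of -0.16, translation factors 0 of 27 with -0.08, and nuclear oxidative phosphorylation genes 0 of 54 with -0.02. Ethanol and acetaldehyde oxidation gave 0 of 13 with -0.21, and Cyp2e1, the ethanol-oxidising cytochrome, had -0.41 ± 0.38 (adjusted p = 0.589). With 4 libraries a group, 0 calls do not show that the effects were equal.

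**Figure D5:**
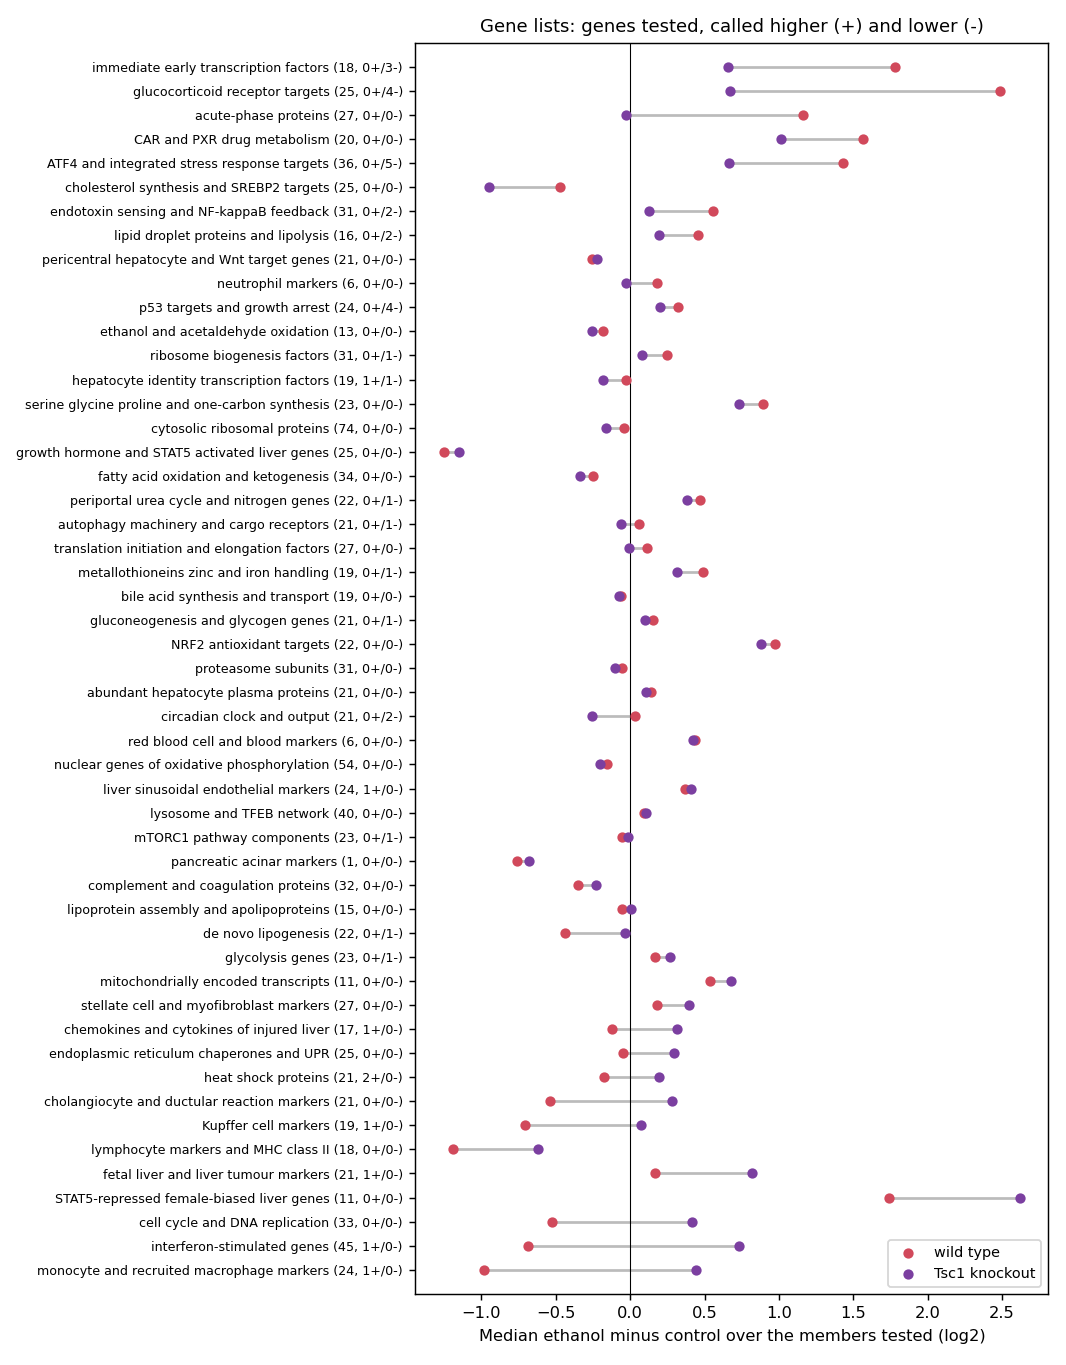
Median ethanol minus control (x axis, log2) in wild type (red) and Tsc1 knockout (purple) over the tested members of each of 51 gene lists, ordered by the median interaction. The labels give the members tested and those called higher (+) or lower (-), and wide gaps are seen for glucocorticoid targets (2.49 and 0.67) and monocyte markers (-0.99 and 0.44).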

How the data were processed

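Liver RNA libraries were analysed from the table of raw read counts per gene that the authors deposited. Per the submitters' processing notes, Trimmomatic 0.36, HISAT2 2.1.0, HTSeq and the mouse build GRCm38 were used. Neither the annotation release nor the strand setting is given in these sources. Rows lacking a symbol (0.227 to 0.479% of each library's counts) stayed out of the fit, and 0 columns were unused.

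One edgeR 4.0.16 quasi-likelihood model (R 4.3.3, limma 3.58.1, TMM scaling, robust fit, no covariates) was fitted to all 16 libraries after filterByExpr with a minimum count of 10 and a minimum total of 15. It left 12 residual degrees of freedom and a biological coefficient of variation of 0.205. A called gene has a Benjamini-Hochberg adjusted p under 0.05 over all 14346 genes in the interaction test. Adjusted p of ethanol or genotype effects come from their own contrasts in the same model. Those given for an alternative, such as a fit without a library, come from that alternative's own test over the genes it kept. Each SE was derived from the test, as the absolute log2 value divided by the square root of its quasi-likelihood F statistic. CPM are per effective library size, and the log2 levels of lists use a prior count of 2. A check of the replicate numbers did not settle whether they pair the libraries. No block was used in this model, and the block was run as an alternative.

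The genes named are Tsc1, the 15 largest rises and the 15 largest falls of the interaction (called, averaging 2 CPM or more, no predicted or date-like symbol), and per list the 4 called members of smallest p and the 2 most abundant uncalled ones, where it had them. A few genes that this rule names are not reported here. Others are said to be chosen after their values were seen. The 51 gene lists held 1229 distinct symbols, of which 1224 matched directly, 5 by a synonym and 1149 were tested. The members and lists were chosen with earlier results of these data known. Alternatives were RLE and upper-quartile scaling, other filters, DESeq2 1.42.0, voom, the replicate block and leaving out libraries. Promoters are RefSeq's (GRCm38.p6) and gene positions GENCODE M21's.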

Additional observations from a re-analysis of the deposited data

Results flagged for a closer look

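The 259 called genes (184 lower, 75 higher) are flagged because the interaction test is itself the test of a difference between the genotypes.

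A library standing far from the other 3 of its group was looked for in 344 groups of 4, and 26 were found. Chance flags about 1 in 20 groups. KO-EtOH 2 held 5 of them. It stood at 2735 CPM for Ctsl against a median of 1801 in the other 3, at 1431 CPM for Cyp2e1 against 4383, at 444 CPM for Hnf4a against 702, at 10.7 CPM for Pld4 against 5.81, and at a median level of 1.25 log2 for p53 targets against 0.59. KO-EtOH 1 stood at 1.86 log2 for interferon-stimulated genes against -0.11, at 42.3 CPM for Cxcl1 against 7.21 and at 10.8 CPM for Ccdc120 against 17.4. KO-EtOH 4 stood at 1.85 log2 for immediate early genes against 1.3.

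Among the knockout controls, KO-ctr 3 stood at 10.2 CPM for Actg1 against 1.89, at 82.2 CPM for Il1r1 against 41.6 and at 21.9 CPM for Dclk3 against 18.3. KO-ctr 2 stood at 22.9 CPM for Vsig4 against 16.2 and at 0.06 log2 for heat shock proteins against -0.19. KO-ctr 1 stood at 495 CPM for Spp1, a secreted matrix protein, against 257, and KO-ctr 4 at 360 CPM for Cxcl12 against 441.

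In wild type, WT-EtOH 3 stood at 368 CPM for Hspa8 against 209, WT-EtOH 4 at 306 CPM for Iigp1, an interferon-induced GTPase, against 162, and WT-EtOH 1 at 109 CPM for Foxo1 against 117. WT-ctr 3 stood at 51.4 CPM for Atg16l1 against 46.3, at 5962 CPM for Fgb against 4228, at 4.61 CPM for Gpr137b-ps against 2.56 and at 3.87 CPM for Pld4 against 5.34. WT-ctr 1 stood at 24.6 CPM for Pla2g12a against 18.6, WT-ctr 2 at 45.2 CPM for Fcgr2b against 29.6, and WT-ctr 4 at 19.4 CPM for Arhgef3 against 23.1.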

How the results depend on the processing

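The number of called genes moved more than any direction. Of 58 called genes chosen for naming 0 reversed in any of 27 alternatives, 33 kept their call in every alternative that left out no library, 22 in all 16 that left out 1, and 18 in all 27. DESeq2 gave 731 calls (292 higher, 439 lower) and voom with sample quality weights 545 (180 and 365), while upper-quartile scaling gave 127 higher and 134 lower. Leaving out KO-EtOH 1 and 2 together gave 116 (44 and 72), 79 of them shared with the 259. Leaving out 1 library gave 53 to 495 calls, 10 to 163 higher and 42 to 332 lower. The cause was not tested. The replicate block gave 255 calls, 202 of them shared. Same-numbered libraries correlated at -0.146 to 0.414 over 24 pairs (mean 0.0488), 7 of them above 0.1. Differently numbered libraries correlated at -0.313 to 0.245 over 72 pairs (mean -0.0157), 10 of them above 0.1. These values do not settle whether the numbers pair the libraries. Depth limits genes near 1 CPM in a group, among them Oas3, Msl3l2, Cd83, Clec7a, Clec12a and Smc2, whose folds rest on few reads.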

Other observations

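Among the lists with 0 interaction calls, 4 with ethanol calls in both genotypes are given here, chosen after their values were seen. Over all genes 33.5% were called for ethanol in wild type and 14.1% in the knockout. CAR and PXR drug metabolism genes, which clear foreign compounds, were raised in 18 of 20 tested members in wild type and in 15 of 20 in the knockout, with median ethanol effects of 1.57 and 1.01 log2 and 0 interaction calls. NRF2 antioxidant targets were raised in 11 and lowered in 3 of 22 in wild type, and raised in 12 and lowered in 1 in the knockout, at medians of 0.97 and 0.88 log2. Cholesterol synthesis genes were lowered in 8 and raised in 1 of 25 in wild type, and lowered in 15 and raised in 0 in the knockout. Over all 14346 genes ethanol lowered 2286 and raised 2525 in wild type, and lowered 1020 and raised 1004 in the knockout. The medians of the cholesterol list were -0.47 and -0.95 log2, again with 0 interaction calls. Complement and coagulation genes were lowered in 18 and raised in 3 of 32 in wild type and lowered in 11 in the knockout, at -0.35 and -0.23 log2. These counts within a genotype are not a test of a difference between genotypes.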
